A study of Mus musculus with 7 samples.

Results

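Ccl1, Ccr8, Xcl1 and Xcr1 are the genes of 2 chemokine pairs, CCL1 with its receptor CCR8 and XCL1 with its receptor XCR1. They were found by symbol, 4 of the 32285 genes in the deposited matrices, and the question was which T-cell subset or NK cells made the ligands and which cells carried the receptors. The genes were chosen by measured values of these data: Ccl1 was higher and Xcl1 lower in T-like cells of BP and BPI tumours than of IgG controls. That comparison is therefore given as values and is not tested. Of 48588 cells kept, 1183 held at least 1 unique molecular identifier (UMI, a counted RNA molecule) of any of the 4 genes: 350 of Ccl1, 668 of Xcl1, 114 of Ccr8 and 146 of Xcr1.

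CCL1 is a chemokine released by activated T cells, and CCR8 is carried by type 2 helper cells and by many regulatory T cells inside tumours. XCL1, or lymphotactin, is released by NK cells and activated CD8 T cells. XCR1 is the receptor that marks type 1 conventional dendritic cells, which present captured antigen to CD8 T cells. CCL8 is another ligand of mouse CCR8.

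Each of the 7 libraries came from whole brain tumours of C57BL/6 mice, wild type and aged 7 to 10 weeks, that carried NSCG-mCherry glioma (EGFRvIII+ - Arf/Ink4a-/-), with tissue taken at about day 14. UT (1 library) was untreated. IgG (2 libraries) received 10 mg/kg of IgG2b isotype antibody, which in the arm matched to BPI came with oral gavage diluent. BP (2 libraries) received 5 mg/kg B20, an antibody to VEGF, with 10 mg/kg anti-PD-L1 by injection every 3 days. BPI (1 library) received the same antibodies plus 10 mg/kg IPI-145, an inhibitor of PI3-kinase delta and gamma, by daily gavage. CD40 (1 library) received 100 µg of agonist anti-CD40 per dose, 2 doses 5 days apart, and the labels leave unsaid whether a dendritic cell vaccine was added. Tissue of at least 2 mice was pooled per group, so variation between mice was not measured. P-values of BP against IgG measure the spread between pooled libraries. Those of contrasts between cell classes, with library as a block, measure how class differences vary between libraries, which also differ in treatment.

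The libraries held 5373 to 9650 cells, with medians of 8589 to 17436 UMIs per cell. BP 1 gave 1048 of the 2084 cells of the 3 T-like subsets, against 23 and 14 in IgG 1 and IgG 2, so pooled levels lean on BP 1. UT stood apart in its sex-linked genes: Xist, the RNA of the inactive X chromosome, had 0 UMIs in its 399 lymphocytes against 39.0% to 82.2% of lymphocytes elsewhere, and its Y-linked Eif2s3y was found in 32.8% of lymphocytes against at most 0.405% elsewhere. Sex of the mice and the untreated condition cannot be told apart. The libraries also fell into sets by their tumour-like cells: cluster 21 of all cells held 2107, 2158 and 1829 cells of IgG 1, BP 2 and BPI and at most 7 of any other library, cluster 24 held 2128 and 1744 cells of IgG 2 and CD40, cluster 7 held 4327 cells of BP 1 among 4468, and cluster 2 held 1507 cells of UT among 1521. IgG 1 and IgG 2 thus lie in different sets, as do BP 1 and BP 2, and the part of this split in the differences between libraries was not tested. Pairs of libraries shared 0 to 21 cell barcodes. A level below is in CPM, the UMIs of the gene scaled to 1e6 UMIs of the cells named, with exact Poisson 95% intervals, and shares of cells have exact binomial 95% intervals. Both cover counting error only.

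The cell classes are described here by marker levels. Most of these markers also named the classes, so the levels are not an independent check. Cd8a stood at 485 CPM in the 1304 CD8 T-like cells and 11.5 CPM in the 414 conventional CD4 T-like cells, where Cd4 stood at 446 CPM. Foxp3, the regulatory T-cell factor, stood at 395 CPM in the 366 regulatory T-like cells and 16.6 CPM in the conventional CD4 T-like cells. Ncr1, the NK receptor NKp46, stood at 727 CPM in the 1085 NK-like cells, where Cd3e of the T-cell receptor complex was at 6.02 CPM. Clec9a stood at 185 CPM in the 44 type 1 dendritic-like cells and 19.9 CPM in the 80 type 2 dendritic-like cells. Gzmk, a listed CD8 marker, was at only 10.6 CPM in the CD8 T-like cells.

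The stretches upstream of the ligand genes are shown because the ligands were found together in CD8 T-like cells: 51 cells held UMIs of both, 36 of them CD8 T-like. Both are the 250 bases before the RefSeq start in build GRCm38.p6, printed 5′ to 3′ on the gene's strand, with capitals for GGAAA, the core bound by NFAT factors of activated T cells, or its reverse complement TTTCC. Ccl1 lies at chr11:82179813-82180062 and Xcl1 at chr1:164935523-164935772, both on the minus strand.
Ccl1: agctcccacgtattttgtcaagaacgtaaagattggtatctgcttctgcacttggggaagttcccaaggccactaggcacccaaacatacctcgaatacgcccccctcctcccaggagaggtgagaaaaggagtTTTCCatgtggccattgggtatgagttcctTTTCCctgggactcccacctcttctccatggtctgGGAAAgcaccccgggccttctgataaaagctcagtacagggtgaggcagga
Xcl1: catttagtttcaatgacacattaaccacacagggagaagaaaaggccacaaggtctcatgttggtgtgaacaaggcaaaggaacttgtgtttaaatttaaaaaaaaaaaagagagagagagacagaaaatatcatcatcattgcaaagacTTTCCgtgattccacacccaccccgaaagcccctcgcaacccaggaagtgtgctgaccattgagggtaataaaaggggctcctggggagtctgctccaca
The Ccl1 stretch held 3 matches, at 116 to 112, 86 to 82 and 51 to 47 bases before the start, and the Xcl1 stretch held 1, at 100 to 96. The same window of Xcr1 held 1 match and that of Ccr8 held 0. GGAAA occurred on either strand in 55.6% of 32851 promoter windows of this length, so its presence sets neither ligand apart. TGANTCA, an AP-1 site that reads the same on both strands apart from its middle base, had 0 matches in all 4 windows and occurred in 6.75% of windows. In the GENCODE vM21 annotation of GRCm38, Ccl1 (ENSMUSG00000020702) spans chr11:82176657-82305690 because of 1 long non-coding transcript, and its coding transcripts end at 82179812. Xcl1 (ENSMUSG00000026573) spans chr1:164931644-164935527. Ccr8 (ENSMUSG00000042262) spans chr9:120092114-120094906 on the plus strand, and Xcr1 (ENSMUSG00000060509) spans chr9:123852315-123862029 on the minus strand.

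Ccl1 was made by few cells that each held much of it, and conventional CD4 T-like cells held most. They contained 3747 of 4995 Ccl1 UMIs (75.0%) and CD8 T-like cells 1056 (21.1%). The level was 954 CPM (95% interval 924 to 985) in conventional CD4 T-like cells, where 127 of 414 cells (30.7%) had a UMI at 29.5 UMIs per positive cell. In CD8 T-like cells it was 136 CPM (128 to 145), with 56 of 1304 cells (4.29%) positive at 18.9 UMIs each. Regulatory T-like cells stood at 8.47 CPM, from 18 UMIs in 5 cells of BP 1, and NK-like cells at 2.62 CPM from 10 UMIs. Free RNA, as measured in empty droplets, would give 55.1% of the 5 NK-like UMIs of BP 1, 55.2% of the 1 in UT and 7.997% of the regulatory T-like UMIs. A single conventional CD4 T-like cell of BP 1 held 644 UMIs.

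The same order held within UT and BP 1 but not within BP 2, which had only 11 conventional CD4 T-like cells. In UT, Ccl1 stood at 655 CPM in 123 conventional CD4 T-like cells (33 positive) and 124 CPM in 81 CD8 T-like cells (6 positive). In BP 1 it stood at 1079 CPM in 279 conventional CD4 T-like cells (93 positive) and 98.2 CPM in 511 CD8 T-like cells (27 positive). BP 2 went the other way, with 194 CPM in 160 CD8 T-like cells (6 positive) and 0 UMIs in its conventional CD4 T-like cells. There a count of 0, read as a floor of 3 counts, allows up to 82.7 CPM. With T cells set by single UMIs in place of clusters, BP 2 had 234 CPM in 115 CD8 T cells (4 positive). Its 28 CD4 T cells had 0 UMIs (Poisson upper limit 47.0 CPM). These limits cover counting error only. Conventional CD4 T-like cells held 86.2% of the Ccl1 UMIs in UT and 84.1% in BP 1, and CD8 T-like cells 98.2% in BP 2, 97.3% in BPI and 73.8% in CD40, where 1 cell held all 31 of these UMIs. BPI had 1 and CD40 had 0 conventional CD4 T-like cells.

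Across all 7 libraries (22 sums of at least 10 cells per library and class, with library as a block), Ccl1 was lower in CD8 T-like than in conventional CD4 T-like cells by a log2 difference of -2.20 ± 0.449 (SE; adjusted p = 0.000646, edgeR quasi-likelihood test over 7944 genes, 11.3% of which were called, 5.53% lower). Conventional CD4 T-like cells reached 10 cells in only 3 of these libraries. Without BP 1 the difference was -1.29 (adjusted p = 0.387), and with subsets set by single UMIs of Cd4, Cd8a, Cd8b1 and Foxp3 in place of clusters it was -0.79 (adjusted p = 0.764). DESeq2 gave -1.95 (adjusted p = 0.896). With those single-UMI gates Ccl1 in CD4 T cells stood at 1079 CPM in BP 1 and 493 CPM in UT, and had 0 UMIs in the 6 to 35 such cells of each other library. Ccl1 was also lower in NK-like cells than in the mean of the 3 T-like subsets, by -5.19 ± 0.713 (adjusted p = 4.64e-07; 33% of genes called, 16% lower). In regulatory T-like cells it was lower than in the mean of the other T-like subsets, by -5.58 ± 0.586 (adjusted p = 1.17e-08; 14.4% of genes called, 8.11% higher and 6.24% lower). Regulatory T-like cells had 0 Ccl1 UMIs outside BP 1, and NK-like cells had 0 in 4 libraries, so the sizes of both differences rest on the prior count. Ccl1 passed the count filter through the CD8 T-like and conventional CD4 T-like sums. Lower values in NK-like and regulatory T-like cells were thus largely fixed in advance. Both contrasts were added after seeing the data, and neither call is read as support. The call in NK-like cells was lost without BP 1 (-3.22, adjusted p = 0.998) and with DESeq2 (-3.66, adjusted p = 0.0619), and the call in regulatory T-like cells was lost with single-UMI gates (-0.999, adjusted p = 0.702).

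Foxp3-positive cells depended on how they were defined. Among the 33 UT cells with UMIs of both Foxp3 and a CD3 chain or Trac, Ccl1 stood at 773 CPM, but 192 of its 196 UMIs were in 1 cell, and 3 cells were positive. In the 221 such cells of BP 1 it stood at 19.3 CPM, with 7 positive.

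**Figure D1:**
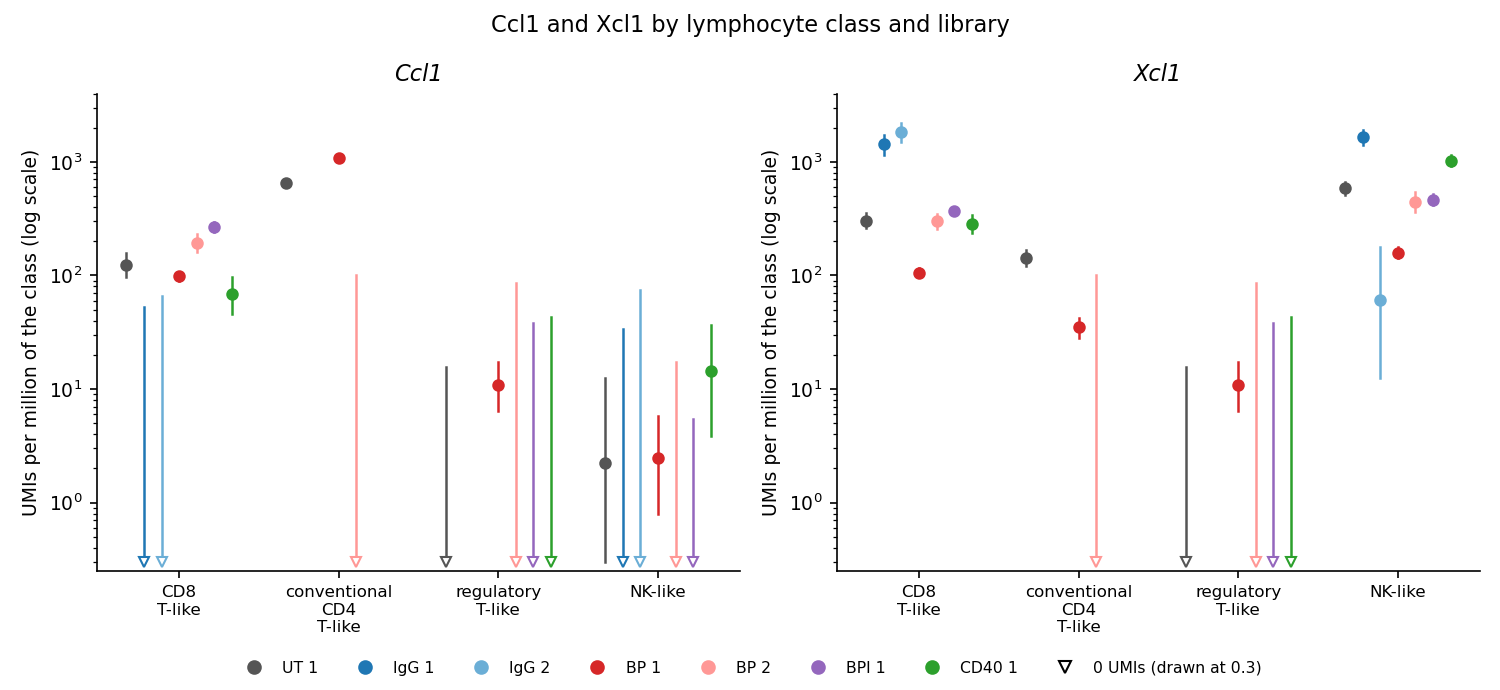
Ccl1 (left) and Xcl1 (right) in CPM on a log axis, by lymphocyte class and library, for classes with at least 10 cells in the library; points are single libraries, bars exact 95% Poisson intervals, and open triangles mark 0 UMIs, drawn at 0.3. Ccl1 is highest in conventional CD4 T-like cells of UT and BP 1, and Xcl1 is present in NK-like and CD8 T-like cells of every library.

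Within the subsets, Ccl1 differed by cluster. The 4 member genes were kept out of clustering, but the listed activation and cytokine genes were not, so what follows on them is description. Lymphocyte cluster 5, 305 conventional CD4 T-like cells led by Il13 and Il4 (type 2 helper cytokines), held 3560 Ccl1 UMIs at 1087 CPM, with 36.4% of cells positive. Its level was 1026 CPM in 32 cells of UT and 1101 CPM in 270 cells of BP 1. Cluster 1, 109 conventional CD4 T-like cells of which 91 came from UT, stood at 287 CPM.

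CD8 T-like cells split further. Cluster 10, 32 cells led by Ifng, Ccl3, Ccl4 and Egr3, genes of recent receptor signalling, stood at 2035 CPM Ccl1 with 34.4% positive, and 22 of its cells came from BPI. Cluster 0, of which 128 of 157 cells came from BP 1, stood at 216 CPM, and cluster 9, 492 cells led by histone genes, at 131 CPM. Cluster 2, 287 cells led by interferon-induced genes, had 0 Ccl1 UMIs, and cluster 7, 336 cells nearly all from BP 1, had 2. CD8 T-like cells of BP 1 were mostly cluster 7 (329 of 511), and those of BP 2 and BPI mostly cluster 9 (97 of 160 and 301 of 449).

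**Figure D2:**
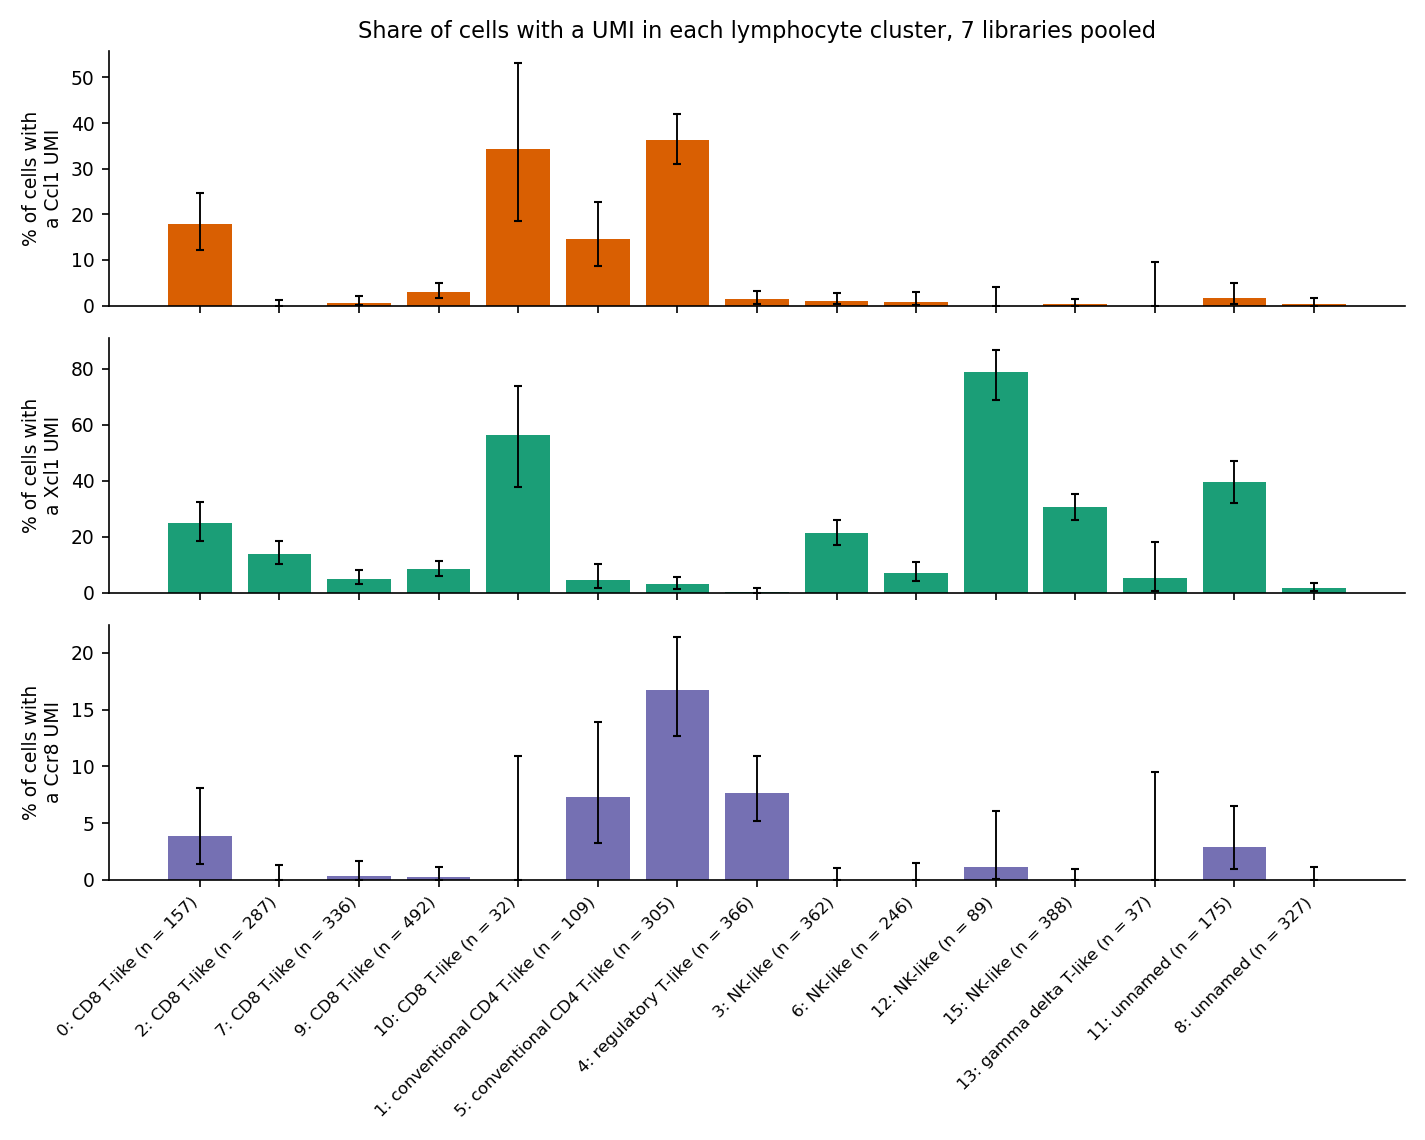
Share of cells with at least 1 UMI of Ccl1 (top), Xcl1 (middle) and Ccr8 (bottom) in each lymphocyte cluster of at least 30 cells, 7 libraries pooled; black bars are exact 95% binomial intervals and n is the number of cells. Clusters 5 and 10 have the largest Ccl1 shares (36.4% and 34.4%), and NK-like cluster 12 the largest Xcl1 share (78.7%).

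CD8 T-like cells with a Ccl1 UMI held more Xcl1, Ccl3 and Ifng, but less Ccl5. Over the 56 positive cells, Xcl1 stood at 1551 CPM against 91.7 CPM in the 1248 others, and 64.3% against 9.54% of cells had an Xcl1 UMI. Ccl3, an inflammatory chemokine, stood at 1586 against 111 CPM, and Ifng, the interferon gamma gene, at 3941 against 380 CPM. Egr2 and Crtam, both switched on by receptor signalling, stood at 51.3 against 6.51 CPM and 226 against 31.7 CPM. These were higher in both libraries with enough positive cells to compare. The recirculation and memory list was mixed in the Ccl1-positive cells. Dapl1 had 0 UMIs against 16.5 CPM, S1pr1, the receptor for tissue exit, stood at 1.47 against 19.8 CPM and Klf2 at 11.7 against 88.1 CPM, each higher in 0 of 2 libraries, while Ccr7 stood at 52.8 against 15.0 CPM and Il7r at 123 against 105 CPM, each higher in 1 of 2. The effector chemokine gene Ccl5 was lower too, at 506 against 3151 CPM. Positive cells were deeper, with a median of 8729.5 against 4135.5 UMIs, and the part of depth in these differences was not tested.

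Ccl1-positive conventional CD4 T-like cells had their own partners. Over 127 positive against 287 other cells, Csf2 (GM-CSF) stood at 115 against 21.3 CPM, Egr2 at 99.5 against 40.9 CPM and Tnf at 274 against 132 CPM, each higher in 2 of 2 libraries. Ccr2 stood at 13.5 against 51.7 CPM. Ccr8 itself was level, at 17.8 CPM in both sets of cells. Median depth was again higher in the positive cells, 9894 against 6357 UMIs.

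**Figure D3:**
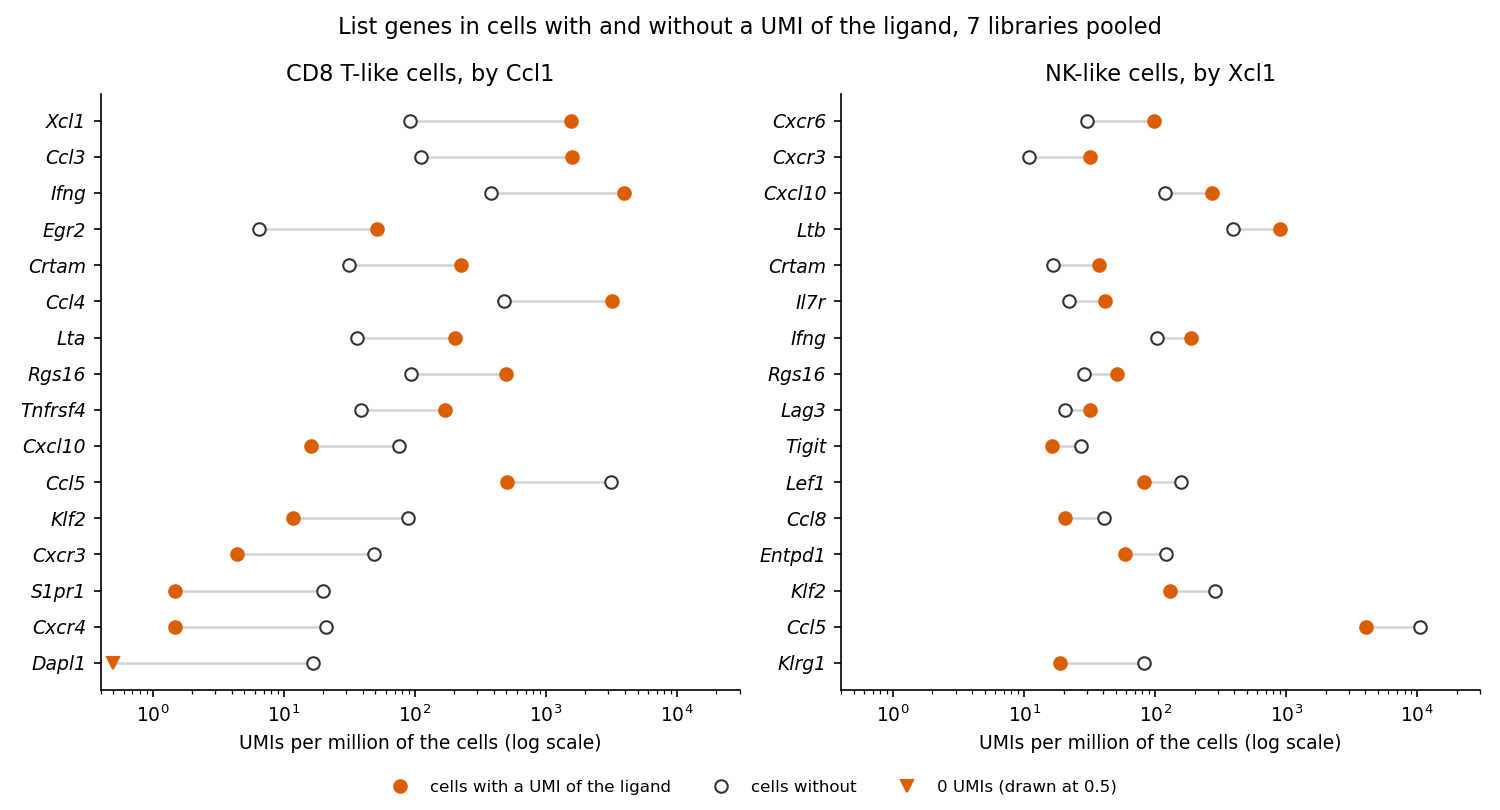
Listed genes in CPM on a log axis in cells with (filled) and without (open) a UMI of the ligand, for Ccl1 in CD8 T-like cells (left) and Xcl1 in NK-like cells (right), 7 libraries pooled; shown are the 9 highest and 7 lowest ratios among the list genes reported by name with at least 50 UMIs, and triangles mark 0 UMIs, drawn at 0.5. Xcl1, Ccl3 and Ifng have the highest ratios with Ccl1, and Cxcr6 and Cxcr3 with Xcl1, while Klrg1 and Ccl5 are lower in Xcl1-positive NK-like cells.

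Xcl1 came from NK-like and CD8 T-like cells, with smaller parts from a mixed cluster and from conventional CD4 T-like cells. CD8 T-like cells contained 1706 of 3982 Xcl1 UMIs (42.8%), NK-like cells 1468 (36.9%), lymphocyte cluster 11 347 (8.71%) and conventional CD4 T-like cells 265 (6.65%). The order differed by library. NK-like cells held more than CD8 T-like cells in UT (37.5% against 25.4%), IgG 1 (61.4% against 34.1%) and CD40 (64.7% against 29.2%), and less in BP 1 (27.7% against 41.1%), BP 2 (32.7% against 58.2%), BPI (32.6% against 56.2%) and IgG 2 (2.68% against 90.2%). Cluster 11, 175 cells led by gamma delta T-cell receptor genes and Zbtb16, was left unnamed because its NK and CD8 T marker scores lay too close, and it stood at 418 CPM (375 to 464), with 100 of its cells from BP 1. NK-like cells stood at 384 CPM (365 to 404) with 26.0% of cells positive at 5.21 UMIs each. CD8 T-like cells stood at 220 CPM (210 to 231) with 11.9% positive, conventional CD4 T-like cells at 67.5 CPM, and regulatory T-like cells at 8.47 CPM, from 18 UMIs in 1 cell of BP 1. The pooled NK-like and cluster 11 intervals overlap, so their pooled order is not set, and this does not give the order within libraries.

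In NK-like cells Xcl1 varied widely between libraries. It stood at 1648 CPM in the 43 cells of IgG 1, where 1 cell held 70 of the 180 UMIs, and 1026 CPM in the 58 cells of CD40. It stood at 584 CPM in UT (117 cells), 463 CPM in BPI (336 cells) and 445 CPM in BP 2 (94 cells). BP 1 stood at 159 CPM in 423 cells. IgG 2 stood at 61.0 CPM (12.6 to 178), from only 3 UMIs in 14 cells. Both BP libraries thus lay below IgG 1. Against IgG 2, the interval of BP 1 (142 to 177) overlaps and that of BP 2 (361 to 544) lies above. Within the set that shares tumour-like clusters, IgG 1 stood at 1648 CPM and BP 2 at 445 CPM, 1 library each and so without a test.

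Xcl1 was higher in NK-like cells than in the mean of the 3 T-like subsets by a log2 difference of 2.41 ± 0.326 (adjusted p = 2.45e-07, edgeR over 7944 genes, 17% called higher). The call held under all 18 alternatives, with 2.21 to 4.25 when 1 library was left out and 4.25 without BP 1. That mean includes regulatory T-like cells, with 0 UMIs outside BP 1. The size of the difference thus rests on the prior count, and its direction was partly fixed in advance. Values of T-like cells also chose the gene, and they form the reference side. The call is therefore not read as support. Against CD8 T-like cells alone, a contrast chosen after seeing the data, the difference was 0.27 ± 0.3001 (adjusted p = 0.555, edgeR) and did not pass. By clusters, NK-like cells stood above CD8 T-like cells in 6 of the 7 libraries and below them in IgG 2 (61.0 against 1818 CPM). Without IgG 2 the difference was 0.62 (adjusted p = 0.0266). That order depends on how cells are set. With single-UMI gates, NK cells stood below CD8 T cells in BPI (326 against 431 CPM) and IgG 2 (977 against 1074 CPM). They were level in BP 1 (110.1 against 109.5 CPM) and higher in UT, IgG 1, BP 2 and CD40. Among T-like cells, Xcl1 was higher in CD8 T-like than in conventional CD4 T-like cells by 1.76 ± 0.486 (adjusted p = 0.0120; 5.74% of genes called higher). That call was lost without BP 1 (1.78, adjusted p = 0.249), without BP 2 (1.61, adjusted p = 0.0607) and with DESeq2 (2.57, adjusted p = 0.227), and by single-UMI gates UT stood at 104 CPM in CD8 T cells and 144 CPM in CD4 T cells, 72 of these 123 UMIs in 1 cell. It was higher in CD8 T-like than in regulatory T-like cells by 4.67 ± 0.604 (adjusted p = 3.25e-07), a contrast chosen after seeing the data. Regulatory T-like cells had 0 Xcl1 UMIs in every library but BP 1, so the size of that fitted difference depends on the prior count. Xcl1 passed the count filter through the other classes, so the direction was largely fixed in advance and the call is not read as support. With cells set by a Foxp3 UMI, UT held 25 Xcl1 UMIs in 33 cells (98.6 CPM), 23 of them in 1 cell. The pooled level of such cells was 22.7 CPM.

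NK-like clusters differed in Xcl1. Cluster 12, 89 cells with Dscam, Tmem176b and Gzmc among the leading genes, stood at 991 CPM with 78.7% of cells positive. Cluster 15 (388 cells) stood at 585 CPM and cluster 3 (362 cells) at 177 CPM. Cluster 6, 246 cells led by Cma1, S1pr5 and Gzma of mature circulating NK cells, stood at 89.4 CPM with 6.91% positive. NK-like cells of BP 1 were mostly cluster 3 (279 of 423), and those of BPI, BP 2 and IgG 1 mostly cluster 15 (264 of 336, 70 of 94 and 28 of 43). Of the 14 NK-like cells of IgG 2, 8 were in cluster 6 and 6 in cluster 15. Over 282 Xcl1-positive against 803 other NK-like cells, Cxcr6, a receptor of tissue-resident lymphocytes, stood at 97.2 against 30.2 CPM and Ltb (lymphotoxin beta) at 896 against 395 CPM, both higher in 6 of 6 libraries. Klrg1, a marker of mature NK cells, stood at 18.8 against 82.3 CPM and Ccl5 at 4049 against 10565 CPM, both lower in 6 of 6 libraries. Median depth was 3368 against 2756 UMIs.

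In CD8 T-like cells, Xcl1 and Ccl1 marked overlapping cells. The 155 Xcl1-positive cells held Ccl1 at 708 CPM against 17.3 CPM in the 1149 others, and Crtam at 151 against 27.6 CPM, both higher in 4 of 4 libraries. Ccr2, a receptor of recruited cells, stood at 39.7 against 159 CPM, lower in 4 of 4 libraries. Cluster 10 again led, at 3085 CPM Xcl1 with 56.2% positive, while cluster 7 stood at 15.2 CPM. In Ccr8-positive conventional CD4 T-like cells (59 cells), Xcl1 stood at 6.42 against 82.6 CPM and Ccl4 at 59.1 against 891 CPM, both lower in 2 of 2 libraries. Only 14 of the 414 conventional CD4 T-like cells had an Xcl1 UMI, so its difference rests on few cells.

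Among the treatment groups, Ccl1 and Xcl1 in T-like cells are the values that chose these genes, and they are given without a test. In the 3 T-like subsets together, Ccl1 had 0 UMIs in IgG 1 (23 cells) and IgG 2 (14 cells). Among the treated libraries BP 1 stood at 390 CPM (377 to 403), BPI at 253 CPM, BP 2 at 170 CPM and CD40 at 57.2 CPM. UT, with no treatment, stood at 406 CPM (378 to 436), an interval that overlaps that of BP 1. The mix of subsets differed, with 279 conventional CD4 T-like cells in BP 1, 123 in UT, 11 in BP 2, 1 in BPI and 0 in CD40. CD8 T cells set by single UMIs gave another order. They stood at 311 CPM in BPI, 234 in BP 2, 96.5 in BP 1, 85.8 in CD40 (1 positive cell) and 51.2 in UT. The part of the mix in the pooled order was not tested. The IgG values rest on few cells: in their CD8 T-like cells the floor of 3 counts is 42.7 CPM in IgG 1 and 54.0 CPM in IgG 2 (exact Poisson upper limits 52.6 and 66.4 CPM), and 5 other libraries were positive in 1 to 27 CD8 T-like cells each. Xcl1 in the 3 T-like subsets stood at 1299 CPM in IgG 1 and 1755 CPM in IgG 2, and no other library passed 358 CPM, the value of BPI. BP 2 stood at 264 CPM, CD40 at 240 CPM, UT at 175 CPM and BP 1 at 66.1 CPM. In the CD8 T-like cells of IgG 1, 88 of 100 UMIs sat in 1 cell, and with CD8 T cells set by single UMIs the level was 88.4 CPM from 4 UMIs in 12 cells. In those of IgG 2, 101 UMIs sat in 4 cells, and the level by single UMIs was 1074 CPM, with 56 of 61 UMIs in 1 cell.

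Xcl1 in NK-like cells was compared between BP and IgG (2 libraries each). The log2 difference was -1.63 ± 0.465 (unadjusted p = 0.000574, adjusted p = 0.257, edgeR over 3139 genes, 0.0637% of which were called), so it did not pass. The direction rested on IgG 1: without it the difference was 2.39 (adjusted p = 0.505), and without BP 2 it was -2.71 (adjusted p = 5.08e-07). Each of these fits leaves 1 library in an arm and 1 residual degree of freedom, so the lone library is assumed to vary like the pair in the other arm. The NK-like cells of IgG 1 lay mostly in cluster 15 and those of BP 1 in cluster 3, while IgG 2 had 8 of 14 in cluster 6; the part of this in the result was not tested. With NK cells set by single UMIs, IgG 1 stood at 902 CPM and IgG 2 at 977 CPM, 39 of the 42 UMIs of IgG 2 in 1 cell, against 110 CPM in BP 1 and 459 CPM in BP 2, and the difference was -1.78 (adjusted p = 0.833). The cell of IgG 2 with 39 UMIs was CD8 T-like by cluster, so it also entered the T-like values that chose the gene, and the gated comparison is not independent of them.

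Ccr8 was sparse and was found in both CD4 T-cell classes, not only in the one with Foxp3. Of 130 Ccr8 UMIs, conventional CD4 T-like cells held 70 (53.8%), regulatory T-like cells 31 (23.8%), CD8 T-like cells 9 and cluster 11 5. The level was 17.8 CPM (13.9 to 22.5) in conventional CD4 T-like cells, with 59 cells (14.3%, 11.03% to 17.99%) positive, and 14.6 CPM (9.92 to 20.7) in regulatory T-like cells, with 28 cells (7.65%, 5.14% to 10.9%) positive. The intervals of the levels overlap and those of the shares do not, at median depths of 6920.5 and 4251.5 UMIs per cell. CD8 T-like cells stood at 1.16 CPM and NK-like cells at 0.262 CPM, from 1 UMI. Tumour-like cells, which should lack the gene, had a UMI in 0.00976% of 30732 cells at a median of 16293 UMIs per cell.

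In conventional CD4 T-like cells Ccr8 stood at 17.3 CPM in UT (18 UMIs) and 18.3 CPM in BP 1 (52 UMIs), and at 1500 UMIs per cell 5 of 121 cells of UT (4.13%) and 5 of 274 of BP 1 (1.82%) were positive; the difference was not tested. In regulatory T-like cells it stood at 21.4 CPM in UT (5 UMIs in 40 cells), 12.7 CPM in BP 1 (21 UMIs in 258 cells), 20.8 CPM in BPI (2 UMIs in 32 cells) and 35.2 CPM in CD40 (3 UMIs in 18 cells). BP 2 had 0 UMIs in 14 cells, IgG 1 in 3 cells and IgG 2 in 1 cell, too few to set a level. With cells set by a Foxp3 UMI, UT had 0 Ccr8 UMIs in 33 cells, BP 1 stood at 11.1 CPM and the pooled level was 9.71 CPM. No comparison of BP with IgG could be fitted. At 1500 UMIs per cell, 2.46% (1.19% to 4.48%) of conventional CD4 T-like and 0.867% (0.179% to 2.51%) of regulatory T-like cells were positive, with 8 and 20 shallower cells left out, and these intervals overlap.

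The count filter removed Ccr8 from the test across all genes, so the planned comparison has no p. As a value, the log2 ratio was 0.62 for the CPM of regulatory T-like cells against the arithmetic mean of the CPM of CD8 T-like and conventional CD4 T-like cells. With no filter on low counts the fit gave 1.52 ± 0.434 (adjusted p = 0.0100, edgeR), and DESeq2 gave 2.32 (adjusted p = 0.316). These fits use the mean of the log levels of both classes, another quantity than the 0.62, so the step between them does not measure the filter. Either mean joins a class rich in Ccr8 with one nearly without it. Against conventional CD4 T-like cells alone, a contrast chosen after seeing the data, the unfiltered difference was -0.32 (adjusted p = 0.935).

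Ccr8-positive regulatory T-like cells (28 cells) held Nr4a2, an early activation factor, at 167 against 33.8 CPM in the 338 others, and Ebi3, a subunit of interleukin 35, at 91.3 against 44.1 CPM. S1pr1 stood at 7.61 against 36.5 CPM, where the level in the positive cells rests on few UMIs. The part of depth in these differences was not tested. Only BP 1 had enough positive cells for a comparison within a library.

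**Figure D4:**
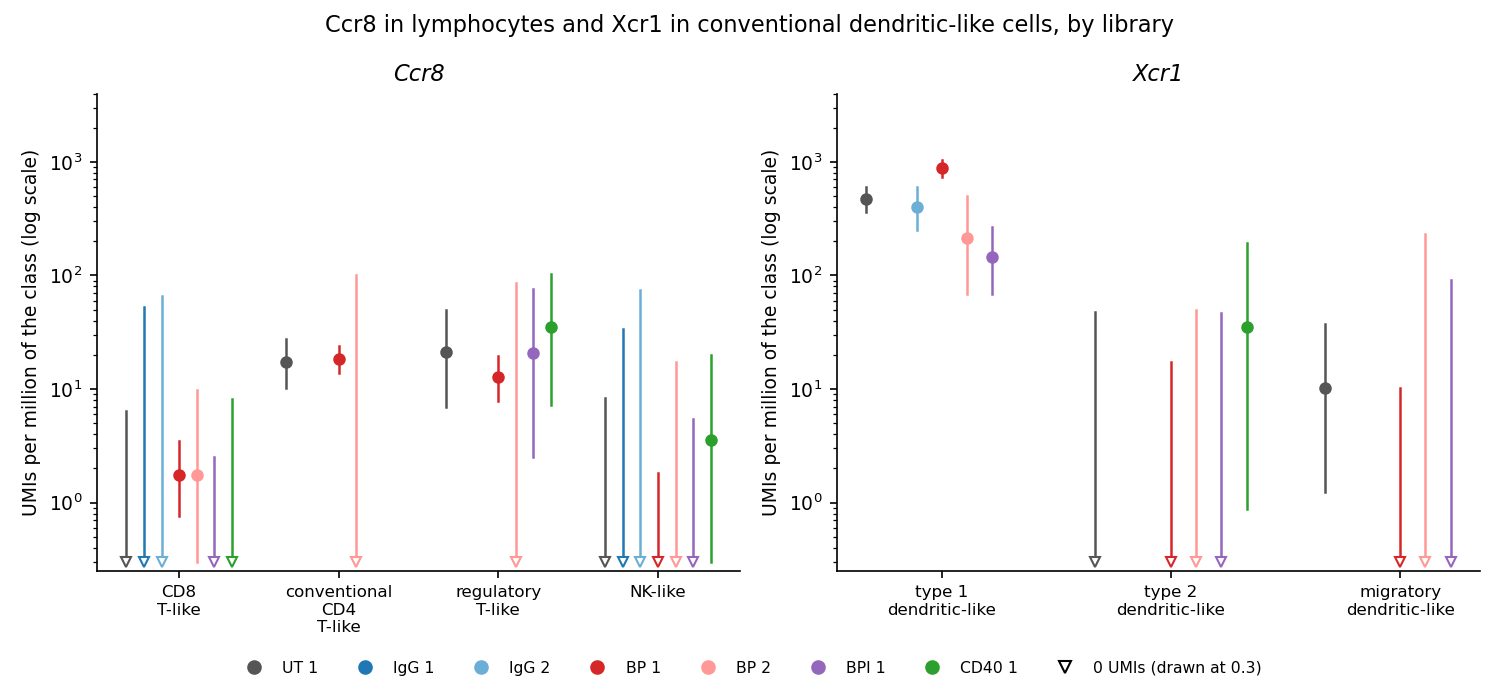
Ccr8 in lymphocyte classes of at least 10 cells (left) and Xcr1 in dendritic-like classes of at least 4 cells (right), in CPM on a log axis, by library; points are single libraries, bars exact 95% Poisson intervals, and open triangles mark 0 UMIs, drawn at 0.3. Ccr8 lies between 12.7 and 35.2 where it is found in regulatory T-like cells, and Xcr1 between 144 and 881 in type 1 dendritic-like cells.

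Xcr1 was found mostly in type 1 dendritic-like cells, with smaller parts in tumour-like and monocyte/macrophage-like cells. Type 1 dendritic-like cells, 44 of 48588 cells, held 236 of 361 Xcr1 UMIs (65.4%) at 519 CPM (455 to 590), with 28 cells (63.6%) positive. The 186 other conventional dendritic-like cells held 3 UMIs at 2.69 CPM, a ratio of 193 (exact 95% interval 65.2 to 941, counting error only). The pooled ratio leans on BP 1, with 136 of the 236 UMIs. In UT, the only library with UMIs in both classes, it was 63.7 (16.9 to 538). Tumour-like cells held 70 UMIs in 0.228% of cells, and at 1500 UMIs per cell 0.0295% were positive for Xcr1, 0.0263% for Ccl1 and 0.0164% for Xcl1. In IgG 1, BP 2 and CD40 tumour-like cells held more Xcr1 UMIs than type 1 dendritic-like cells did, 8 of 9, 8 of 17 and 20 of 26. B-like cells had 0 UMIs of all 4 genes in 183 cells. Monocyte/macrophage-like cells held 21 UMIs (5.82%), among them 4 of 17 in BP 2 and 6 of 21 in BPI, microglia-like cells held 7, and a further 9 lay in 3 regulatory T-like cells of BP 1.

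By library, type 1 dendritic-like cells stood at 881 CPM in BP 1 (136 UMIs in 11 cells), 468 CPM in UT (63 UMIs in 8 cells) and 400 CPM in IgG 2 (22 UMIs in 4 cells). They stood at 213 CPM in BP 2 (5 UMIs in 4 cells) and 144 CPM in BPI (10 UMIs in 16 cells). CD40 had 1 such cell with 0 UMIs and IgG 1 had none. The order rests on few cells and on how they are chosen. With 2 times the doublet share removed, an alternative read by library after seeing the data, BP 1 kept 4 of its 11 type 1 cells at 402 CPM (13 UMIs) and IgG 2 kept 0 of 4, so most Xcr1 UMIs of these libraries lay in cells with high doublet scores. UT, BP 2 and BPI kept all of theirs, and the pooled level became 328 CPM in 33 cells against 3.12 CPM in 164 other dendritic-like cells. With type 1 cells set by single UMIs, BP 1 stood at 361 CPM, IgG 2 at 354 CPM and UT at 269 CPM. That definition gave 111 type 1 cells, among them 5 of CD40 and 1 of IgG 1. At clustering resolution 2 the class held 26 cells of UT, 3 of IgG 1, 6 of IgG 2, 46 of BP 1, 25 of BP 2, 60 of BPI and 5 of CD40. Its size thus depends on the definition.

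The fit of Xcr1 could use only BP 1 and BPI (4 sums, 1 residual degree of freedom). In both, the other cells held 0 UMIs, so the gene passed the count filter only through the type 1 cells and had to differ. Its call by edgeR (17.5% of 2560 genes called, 5.43% higher) is therefore not read as support, and the levels above stand as a description. Xcr1 in all conventional dendritic-like cells could not be compared between BP and IgG, since IgG 1 and IgG 2 held 2 and 6 such cells.

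Other genes of the pathways came from lists, here counted beside all genes tested, and as these genes took part in clustering their counts are descriptions. Of 11 tested among 13 T- and NK-cell chemokines and cytokines, 2 were higher and 4 lower in CD8 T-like than in conventional CD4 T-like cells (median log2 difference -0.10, against 0.03 over all genes, of which 5.74% were called higher and 5.53% lower). Ccl5, an effector chemokine and also a marker used to name CD8 T-like cells, was higher (4.91 ± 0.389, adjusted p = 3.14e-11), and Csf2 was lower (-3.86 ± 0.599, adjusted p = 1.43e-05), as was Il10, an inhibitory cytokine (-2.81 ± 0.631, adjusted p = 0.00189, all edgeR). Of 9 other chemokine receptors tested, 2 were higher and 3 lower, with Cxcr3 at 1.06, Ccr6 at -5.00, Ccr4 at -3.05 and Ccr7 at -1.80. Ccr4 and Ccr8 are both known from type 2 helper and regulatory T cells. Of 14 genes tested from the list of activation and inhibitory receptor genes, 2 were higher and 6 lower (median -0.66), with Gzmb (granzyme B) at 4.63 and Nr4a1 at -1.83. Of 8 recirculation genes, 5 were higher and 1 lower (median 1.70), with Dapl1 at 3.66.

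In NK-like cells against the mean of the T-like subsets, 2 of 11 chemokines and cytokines were higher and 4 lower (median -0.23, all genes -0.00223, of which 17% were called higher and 16% lower). Ccl5 stood at 4.12 and Cxcl10 at 1.05 on the higher side, and Il10 at -4.90 and Lta (lymphotoxin alpha) at -3.41 on the lower. Of 9 other receptors, 2 were higher and 6 lower (median -1.25), with Cxcr4 at 1.16 and Ccr6 at -5.80. Of 14 activation and inhibitory receptor genes, 3 were higher and 8 lower, with Irf8 at 3.17 and Irf4 at -6.10.

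In regulatory T-like cells against the mean of the other T-like subsets, 9 of 10 tumour regulatory T-cell genes were higher and 0 lower (median 2.39, all genes -0.06, of which 8.11% were called higher and 6.24% lower). They included Klrg1 at 4.84, Il10 at 4.71, Il1rl1 (the interleukin 33 receptor) at 3.78 and Tnfrsf4 (OX40) at 3.45. Of 9 other chemokine receptors tested, 4 were higher and 1 lower, with Ccr6 at 2.54, Ccr4 at 2.16, Ccr2 at 1.52 and Cxcr6 at -1.02. Of 11 chemokines and cytokines, 2 were higher and 4 lower, with Ifng at -5.82. Ccl8 was not called in any of these contrasts (0.31, 0.41 and 0.27). In type 1 against other dendritic-like cells, 8 of 8 tested maturation genes were lower (median -2.48, all genes -0.02, of which 12% were called lower), with Ccr7 at -10.6, Ccl22 at -5.76 and Ccl17 at -4.32. Ccr7, Ccl22 and Ccl17 are also markers that named the migratory cells.

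By likeness of level over 17 cell classes of at least 50 cells (Pearson r of log2 of CPM plus 5, 12289 genes), the genes nearest to Ccl1 were Prss2 (0.946), Slc17a6 (0.931), Gm49180 (0.910), Exph5 (0.909) and Rgs8 (0.905). Nearest to Xcl1 were the NK receptor genes Klrc2 (0.981), Klrc1 (0.979), Klre1 (0.969, also an NK naming marker), Cd160 (0.968) and Klra5 (0.957). Nearest to Ccr8 were Sdf4 (0.908), Podnl1 (0.901), Penk (0.892), Tff1 (0.883) and Slc9b2 (0.875), although Ccr8 itself reached only 17.8 CPM, under the 20 CPM asked of the genes compared. The classes share libraries and depth, and these values are descriptions. For Xcr1 the 44 type 1 dendritic-like cells were under the minimum of 50, so its likeness would rest on at most 4.24 CPM and no genes are named.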

How the data were processed

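Single-cell RNA was measured with the 10x Genomics 3′ kit in 7 libraries, per the labels' protocols. The authors deposited raw UMI counts for each gene in each barcode, made with Cell Ranger, version 4 per the file headers and 7.0.1 with mm10 per the submitters' processing notes. Barcodes of UT come from a different list, although 1 chemistry is labelled for all. All barcodes, not only cells, were deposited.

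A barcode passed (51795 did) with 1000 UMIs, 500 genes and a mitochondrial share up to 15%, and 3207 with the highest Scrublet scores (0.8% per 1000 cells) were removed as doublets. The libraries summed to 68997500 to 186794000 UMIs over all barcodes. Clustering used scanpy 1.11.5 (2000 variable genes, 30 components, 15 neighbours, resolution 1; 1000 variable genes within lymphocytes and dendritic cells), without the 4 genes. Clusters were named from marker lists; the scoring rule was set after seeing the data. The UMI gates defined T cells by Cd3e, Cd3d, Cd3g or Trac, and NK cells by Ncr1, Klrb1c or Klre1 without these. The members and lists were chosen with earlier results of these data known.

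Counts were summed per library and class (at least 10 cells) and tested with edgeR 4.0.16 (TMM, filterByExpr, quasi-likelihood, Benjamini-Hochberg at 0.05), with library as a block for contrasts of classes and DESeq2 1.42.0 as an alternative. On simulated counts, 200 of 200 genes changed 4-fold were recovered in each contrast of lymphocyte classes, and 145 of 200 in BP against IgG. False calls numbered 18 (CD8 T-like against conventional CD4 T-like), 10 (NK-like), 18 (regulatory T-like) and 3 (BP against IgG). The changed genes lay above the median level, and no differences between libraries were simulated. The recovery therefore does not give the power for sparse genes such as Ccr8. Named genes were the 4 members, the 5 genes nearest in level (none printed for Xcr1), and list genes with the largest changes that passed; some list genes are counted but not reported here by name. Samples were grouped by the labels. IgG and BP share replicate numbers. In NK-like cells, IgG 1 minus IgG 2 correlated with BP 1 minus BP 2 at r = -0.0903 over 4668 genes. With only 14 such cells in IgG 2, this r cannot decide whether the numbers pair the libraries. Free RNA was estimated from barcodes of 1 to 50 UMIs, where Ccl1 reached 29.2 CPM in BP 1 and 10.1 CPM in UT. A floor of 3 counts was used where a class had 0 UMIs.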

Additional observations from a re-analysis of the deposited data

How the results depend on the processing

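Ccl1 in CD8 T-like against conventional CD4 T-like cells kept its direction throughout and lost its call with DESeq2 (-1.95), with UMI gates (-0.79) and without BP 1 (-1.29), and ranged from -2.91 to -1.29 with 1 library left out. Xcl1 in NK-like against T-like cells kept direction and call, at 2.21 to 4.25 with 1 library left out. The added contrast of CD8 T-like with regulatory T-like cells did so at 4.37 to 10.3, but neither of these Xcl1 calls is read as support. Ccr8 in regulatory T-like against the mean of CD8 T-like and conventional CD4 T-like cells, untested under the filter, was called with no filter (1.52) and with at least 20 cells a sum (1.62, with an adjusted p barely under the threshold), and against conventional CD4 T-like cells alone DESeq2 turned the direction (0.23). Xcr1, compared with 0 UMIs in the fit, was not called by DESeq2, whose fitted value (9.41) depends on the method and is no size. Xcl1 in NK-like against CD8 T-like cells, a contrast added after seeing the data, was not called (0.27), turned direction with no library block (-0.0397), and was called with at least 20 cells a sum (0.62), without the top cell of each sum (0.86) and without IgG 2 (0.62), with 0.04 to 0.62 when 1 library was left out. Added after seeing the data, the same alternatives gave Xcl1 in CD8 T-like against conventional CD4 T-like cells as 1.58 to 2.14 with 1 library left out, with the call lost without BP 1, without BP 2 and with DESeq2. They gave Ccl1 in NK-like against T-like cells as -5.86 to -3.22, lost without BP 1 and with DESeq2, and Ccl1 in regulatory against other T-like cells as -9.73 to -5.36, lost with UMI gates. Neither of these Ccl1 calls is read as support, for the reason given above. The cause of each change was not tested.

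Xcl1 in NK-like cells, BP against IgG, ranged from -2.71 (without BP 2, called) to 2.39 (without IgG 1, the opposite direction), each with 1 library in an arm and 1 residual degree of freedom, so that the other arm's pair gives the spread. With the replicate block, where same-numbered libraries are known to share only a number, it was -1.11 (edgeR adjusted p = 0.998) with 2 genes called. The crossed pairing gave 6 genes called. In this contrast 2 genes were called, 171 at an unadjusted p under 0.05, against 0 with DESeq2, DESeq2 size factors, free RNA subtracted or UMI gates (144 at an unadjusted p under 0.05 with gates), 5 with no filter, 7 with 6 libraries in the fit, 1 without BP 1 and 37 without BP 2.

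Levels moved beyond their counting intervals when cells were thinned to 1500 UMIs: the share with a Ccl1 UMI became 2.69% in CD8 T-like and 17.7% in conventional CD4 T-like cells, with an Xcl1 UMI 7.08% in CD8 T-like and 19.8% in NK-like cells, with a Ccr8 UMI 0.867% in regulatory and 2.46% in conventional CD4 T-like cells, and with an Xcr1 UMI 37.2% in type 1 dendritic-like cells. With UMI gates, Ccl1 stood at 858 CPM in conventional CD4 T-like cells, Xcl1 at 196 CPM in CD8 T-like and 291 CPM in NK-like cells, Ccr8 at 9.71 CPM in regulatory T-like and Xcr1 at 255 CPM in type 1 dendritic-like cells.

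Genes called in CD8 T-like against conventional CD4 T-like cells numbered 895, against 494 with DESeq2, 270 with no library block, 506 with gates and 150 without BP 1. In NK-like against T-like cells they numbered 2620, against 1322 with no block and 1283 without BP 1. In regulatory T-like cells they numbered 1140, against 348 with no block, 591 with gates, 683 without UT and 459 without BP 1. In type 1 dendritic-like cells they numbered 447, against 90 with DESeq2, 105 with no block, 815 with gates, 150 with free RNA subtracted and 1426 at resolution 2. For Xcr1, at least 20 cells a sum, removing more doublets, and leaving out BP 1 or BPI gave no fit, as too few sums remained. For Ccr8 most alternatives left it under the low-count filter. Ccr8 values rest on 130 UMIs in all.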
